A study of Sus scrofa with 9 samples.

Results

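Genes for keratins, vimentin, epithelial adhesion proteins and epithelial regulators were followed after heat in cultures labelled as porcine immature Sertoli cells. The set named KRT7, KRT8, KRT18, KRT19, EPCAM, CDH1, CDH2, VIM, ESRP1 and GRHL2, taken by symbol, with no measured value in the rule. Of these 10 genes, 7 were matched by symbol among the 20681 genes of the expression table, and all 7 were among the 11479 genes tested. KRT19, CDH2 and GRHL2 were not analysed here. Sertoli cells are somatic cells of the testis that enclose and nourish the germ cells. The label was only partly matched by markers: INHA, DHH, NR5A1, KITLG and DMRT1 of Sertoli cells were under an FPKM of 0.5 in all 9 libraries, and PAX2, EMX2 and CDH16, known from kidney tubules and the Wolffian duct, averaged 25.3, 41.2 and 58.4 FPKM in control. The labels give testis at 80 to 90 days of gestation as the source, and the cells were grown in minimum essential medium with 10% fetal bovine serum at 37 °C and 5% CO2, for 6 h after seeding before any heat. Total RNA was sequenced from 3 groups of 3 libraries: control cells taken before heat, HS0.5 cells taken at 0 h after 0.5 h at 43 °C, and HS0.5-R36 cells that had the same heat and then 36 h at 37 °C. Control cells were not cultured on beside the heated ones, so heat cannot be told apart from 0.5 h or about 36 h of further culture. The labels do not say that replicates came from separate cultures or animals, so every p-value reflects only how much these samples differ among themselves, a spread that may be technical.

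Keratins build intermediate filaments only as pairs of a type II and a type I protein. KRT7 and KRT8 are type II, KRT18 is the type I partner of KRT8 in simple epithelia, and keratin that finds no partner is degraded. Vimentin (VIM) forms filaments of its own and is the filament protein of mesenchymal cells and of mature Sertoli cells, whereas immature Sertoli cells of several mammals also carry KRT8 and KRT18. CDH1 (E-cadherin) and CDH2 (N-cadherin) hold neighbouring cells together at adherens junctions, and EPCAM is a surface glycoprotein of epithelia. ESRP1 sets the epithelial pattern of alternative splicing, and GRHL2 is a transcription factor that maintains epithelial genes. Loss of CDH1, EPCAM, ESRP1 and keratins with gain of VIM and CDH2 is the usual readout of epithelial to mesenchymal transition (EMT).

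After 36 h of recovery, 5 of the 7 genes were lower than before heat (VIM, KRT18, KRT7, EPCAM and CDH1), 1 was higher (ESRP1) and KRT8 did not pass the test, where 34.6% of all genes tested were lower and 28.5% higher. CDH1 and KRT7 lost their calls under other scalings of the libraries. VIM had the largest change, 3.16-fold, and the epithelial splicing regulator ESRP1 was 1.90-fold higher. At the end of the heat exposure none of the 7 genes differed from control past the threshold. The ratio of KRT8 to KRT18, the partners of 1 filament, was 5.96 ± 1.03 in HS0.5-R36 and 2.85 ± 0.211 in control (SD, n = 3 each), with no overlap between the libraries of these groups.

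Values are FPKM, fragments per kilobase of gene length scaled to the library's fragments, as deposited by the authors. The number of reads behind each value could be recovered, with 18110565 to 21034021 reads per library, so that 1 read in a gene of 1 kb is worth an FPKM of 0.0413 to 0.0576. Summed over 3 libraries, the most weakly covered gene of the set rested on 2072 reads in control libraries (ESRP1), 2421 in HS0.5 libraries (ESRP1) and 2494 in HS0.5-R36 libraries (EPCAM). Changes are log2 differences of FPKM + 1, with p-values of limma (moderated linear model, all 9 libraries) adjusted after Benjamini and Hochberg for all 11479 genes tested and a threshold of 0.05. The authors' scaling of the HS0.5-R36 libraries differed from the rest: the library size behind the FPKM was 1.17 to 1.19 times the recovered total there and 0.902 to 0.973 times it in the other 6 libraries. Each change is therefore also given relative to the median change of all genes under other scalings. Control replicate 2 stood apart from the other controls, with the shortest genes at 1.38 times and the longest genes at 0.777 times the mean of controls 1 and 3 (medians of the outer deciles of gene length). KRT7, KRT8 and KRT18 were at 1.53, 1.52 and 1.67 times that mean in this library, and the part of gene length in this was not tested.

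**Figure D1:**
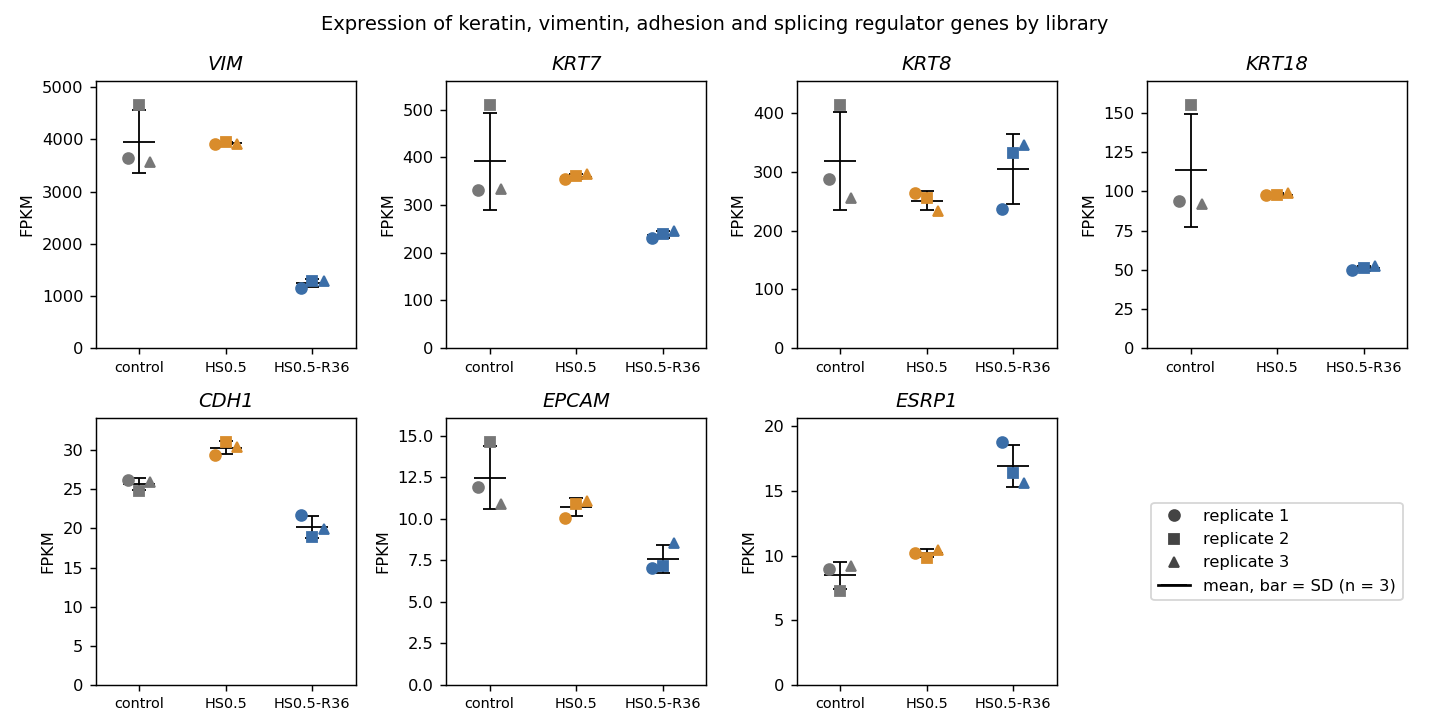
FPKM (linear axes from 0) of the 7 genes in each of the 9 libraries, with circles, squares and triangles for replicates 1, 2 and 3 and a line and bar for the mean and SD (n = 3). The HS0.5-R36 libraries lie below all others for VIM, KRT7, KRT18, EPCAM and CDH1 and above all others for ESRP1, and they overlap the other groups for KRT8.

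VIM was the most abundant gene of the set in every library and KRT18 and CDH1 always came next after KRT7 and KRT8, in that order. Within a library, ranked by FPKM among the genes tested, VIM lay at or above the 99.8th percentile, KRT7 between 99.0 and 99.2, KRT8 between 98.6 and 99.3 and KRT18 between 93.9 and 97.0. CDH1 lay between the percentiles 78.1 and 84.1, EPCAM between 46.5 and 66.5 and ESRP1 between 48.1 and 78.4. The keratins and vimentin were thus among the most expressed genes in all 9 libraries, and the surface and splicing genes were of middle rank. KRT7 stood above KRT8 in all 6 control and HS0.5 libraries, and KRT8 above KRT7 in all 3 HS0.5-R36 libraries. Such an order by FPKM rests on gene length, 2557 bases for KRT7 and 4246 for KRT8. By share of reads KRT8 stood above KRT7 in every library. ESRP1 stood above EPCAM in the 3 HS0.5-R36 libraries and, by FPKM but not by share of reads, in HS0.5 replicate 1.

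KRT7 (ENSSSCG00000038966, chromosome 5, 17555714 to 17571141) is a type II keratin of ducts and other simple epithelia. Its FPKM was 230.3, 239 and 246 in HS0.5-R36, against 333, 509 and 333 in control, with 354, 360.3 and 365 in HS0.5. All 3 HS0.5-R36 libraries were below the lowest control library, and control replicate 2 was the highest of the 9. KRT7 fell by 0.69 ± 0.15 on the log2 scale (SE, limma adjusted p = 0.0037), which is 1.61-fold. The change was -0.34 with libraries rescaled to the same sum (limma adjusted p = 0.014), and KRT7 did not pass after quantile normalization (-0.09, limma adjusted p = 0.31). Without control replicate 2 the change was -0.48 (limma adjusted p = 6.3e-05).

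KRT8 (ENSSSCG00000000252, chromosome 5, 18170354 to 18180404), the type II keratin that forms first in embryonic epithelia, had 237, 333 and 346 FPKM in HS0.5-R36, against 288, 414 and 256 in control. In HS0.5 it had 265, 256 and 233 FPKM. The groups overlapped: HS0.5-R36 replicate 1, at 0.697 of the mean of the other 2 recovered libraries, was below every control library, and replicates 2 and 3 were above 2 of the 3 controls. The difference of HS0.5-R36 from control was -0.05 ± 0.20 (SE, limma adjusted p = 0.82). The 95% interval was -0.50 to 0.39, so a rise or a fall within these bounds remains possible in this fit.

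KRT18 (ENSSSCG00000000253, chromosome 5, 18217691 to 18222833), the type I partner, had 49.6, 50.9 and 52.6 FPKM in HS0.5-R36, against 93.6, 155 and 91.8 FPKM in control. The HS0.5 libraries had 97.7, 97.6 and 98.8 FPKM. The recovered libraries lay close together and far below the others, and control replicate 2 was again the highest. KRT18 fell by 1.09 ± 0.17 on the log2 scale (SE, limma adjusted p = 0.00049), 2.14-fold, and by 0.85 without control replicate 2 (limma adjusted p = 1.95e-06). KRT8 and KRT18 are divergent neighbours, 37286 bases apart in the file's coordinates, with 1 unnamed gene between them.

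The ratio of KRT8 to KRT18 inside a library does not depend on how libraries were scaled. It was 4.77, 6.53 and 6.58 in HS0.5-R36, against 3.08, 2.67 and 2.79 in control, and it was 2.71, 2.62 and 2.36 in HS0.5. The lowest recovered library was above the highest of the other 6. The mean log2 ratio was 1.05 higher in HS0.5-R36 than in control (exact permutation test, two-sided, p = 0.1) and 1.20 higher than in HS0.5 (exact permutation test, p = 0.1). With 3 libraries against 3 the smallest p that the test can give is 0.1, so none of the 9 ratio tests made could reach 0.05, and adjusted over the 9 tests these values are 0.15. The ratio of KRT7 to KRT8, chosen after its values were seen and not tested, was 1.23 ± 0.0739 in control libraries, 1.44 ± 0.116 in HS0.5 libraries and 0.800 ± 0.15 in HS0.5-R36 libraries (SD, n = 3 each).

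**Figure D2:**
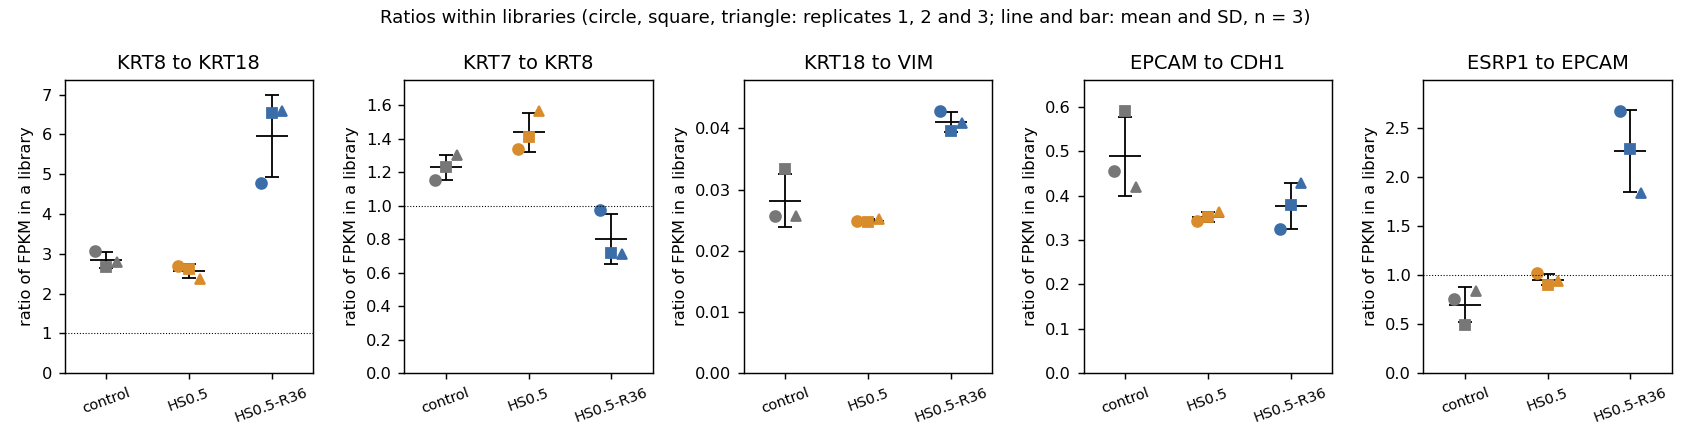
Ratios of FPKM within a library (linear axes from 0) for KRT8 to KRT18, KRT18 to VIM, EPCAM to CDH1, KRT7 to KRT8 and ESRP1 to EPCAM in the 9 libraries, with the mean and SD of each group (n = 3). KRT8 to KRT18 averages 5.96 in HS0.5-R36 and 2.85 in control, while EPCAM to CDH1 overlaps between these groups.

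VIM (ENSSSCG00000011033, chromosome 10, 43517307 to 43526172) had 1158, 1285 and 1288 FPKM in HS0.5-R36, against 3649.8, 4654 and 3569 FPKM in control. In HS0.5 it had 3920.0, 3955 and 3917 FPKM. The recovered libraries were far below the other 6, which overlapped. VIM was the 22nd or 23rd most expressed gene in the recovered libraries and the 6th or 7th in the other 6. VIM took between 0.386% and 0.436% of all recovered reads in HS0.5-R36, against 0.987% to 1.20% in control. It fell by 1.66 ± 0.13 on the log2 scale (SE, limma adjusted p = 8.4e-06).

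The summed FPKM of KRT7, KRT8 and KRT18 was 516.5, 622.2 and 644.6 in HS0.5-R36, against 714.5, 1078 and 680.8 in control, with no overlap, while their summed share of reads did overlap. The 3 genes together took 0.206% to 0.269% of reads in HS0.5-R36, against 0.217% to 0.322% in control. The ratio of KRT18 to VIM was 0.0411 ± 0.0016 in HS0.5-R36 and 0.0282 ± 0.0044 in control (SD, n = 3 each), a log2 difference of 0.55 (exact permutation test, p = 0.1). In HS0.5 it was 0.0249 ± 0.000275, below every control library (-0.17, exact permutation test, p = 0.1), and the difference was -0.04 without control replicate 2. As these are bulk libraries, fewer cells of a type and less RNA per cell cannot be told apart.

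EPCAM (ENSSSCG00000008429, chromosome 3, 93168852 to 93185653) had 7.05, 7.16 and 8.53 FPKM in HS0.5-R36, against 11.9, 14.6 and 10.9 FPKM in control. HS0.5 cells had 10.1, 10.9 and 11.1 FPKM. The recovered libraries were all below the rest, and HS0.5 overlapped control at its lower end. EPCAM fell by 0.65 ± 0.11 on the log2 scale after recovery (SE, limma adjusted p = 0.00089), 1.57-fold.

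CDH1 (ENSSSCG00000025652, chromosome 6, 18075480 to 18155986) had 21.7, 18.9 and 19.9 FPKM in HS0.5-R36, against 26.2, 24.8 and 25.9 FPKM in control. HS0.5 libraries were the highest, with 29.4, 31.1 and 30.5 FPKM. The 3 groups did not overlap, and control replicate 2 was not high for this gene. CDH1 fell by 0.33 ± 0.07 on the log2 scale after recovery (SE, limma adjusted p = 0.0035), 1.26-fold. This call depends on the scaling: the change was 0.00 with libraries rescaled to the same sum (limma adjusted p = 1.0), -0.03 after quantile normalization (limma adjusted p = 0.81) and -0.02 in a voom fit of the recovered reads (limma adjusted p = 0.81).

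EPCAM and CDH1 were compared as a ratio within libraries, which was 0.489 ± 0.090 in control libraries, 0.353 ± 0.0108 in HS0.5 libraries and 0.377 ± 0.0523 in HS0.5-R36 libraries (SD, n = 3 each). HS0.5 was below control in all libraries (log2 difference -0.46, exact permutation test, p = 0.1), and HS0.5-R36 overlapped control (-0.37, exact permutation test, p = 0.2).

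ESRP1 (ENSSSCG00000006099, chromosome 4, 41993944 to 42061236) was the only one of the 7 genes that rose after recovery. It had 18.8, 16.4 and 15.7 FPKM in HS0.5-R36, against 8.99, 7.25 and 9.17 FPKM in control. In HS0.5 it had 10.2, 9.83 and 10.4 FPKM, between the other groups and overlapping neither. ESRP1 rose by 0.92 ± 0.10 on the log2 scale (SE, limma adjusted p = 5.1e-05), 1.90-fold. Its relative ESRP2 was at 0.0631 to 0.181 FPKM in all 9 libraries. Relatives of GRHL2 were also near 0, with GRHL1 at 0 to 0.0230 and GRHL3 at 0.0142 to 0.148 FPKM. The ratio of ESRP1 to EPCAM, chosen after its values were seen and not tested, was 0.697 ± 0.18 in control libraries, 0.953 ± 0.059 in HS0.5 libraries and 2.26 ± 0.416 in HS0.5-R36 libraries (SD, n = 3 each).

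**Figure D3:**
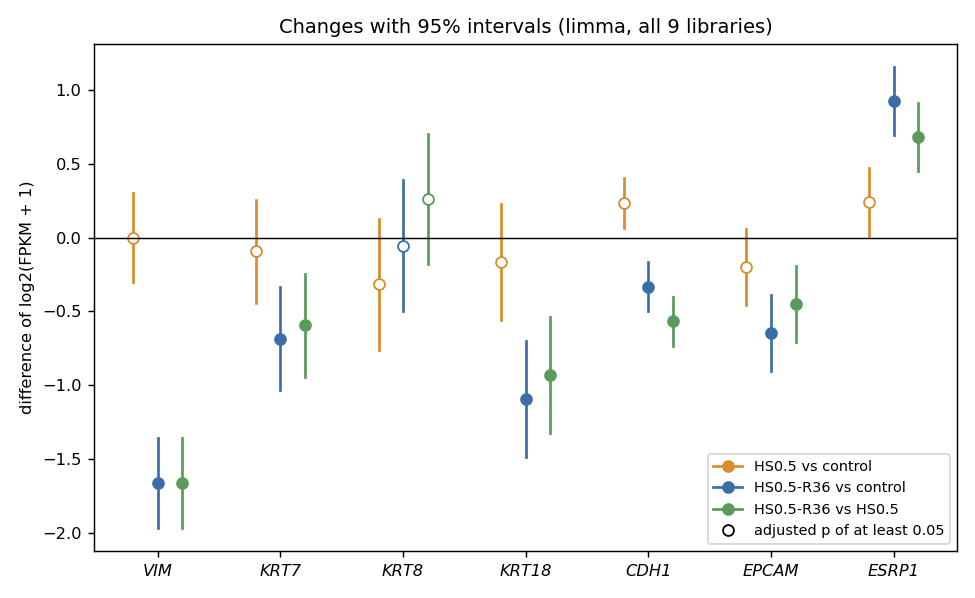
Log2 change of FPKM + 1 for the 7 genes in each of the 3 comparisons (points) with 95% intervals of limma (bars, n = 3 libraries per group). In HS0.5-R36 against control VIM is farthest below 0 at -1.66 and ESRP1 is above 0 at 0.92, while the interval of KRT8 spans 0.

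Of the 7 genes, 1 was higher and 5 were lower in HS0.5-R36 than in control, where 28.5% of all genes tested were higher and 34.6% lower at the same threshold. With calls this frequent, passing the test alone does not set a gene apart from the rest. The median change of the 7 genes was -0.65 on the log2 scale as deposited, beside -0.06 for all genes tested and -0.21 for genes kept at a filter of FPKM 5. That gap narrowed after quantile normalization, where the middle value of the 7 was that of KRT7, -0.09, beside 0.01 for all genes. With libraries rescaled to the same sum both values moved up, the middle value being that of EPCAM, -0.33, beside 0.24. EPCAM, also the middle gene as deposited, was then at -0.57 relative to the median of all genes, against -0.58 as deposited. In HS0.5 against control, 0 of the 7 genes passed in limma, where 2.29% of all genes were higher and 1.32% lower, and 0 passed in the voom fit. At an unadjusted limma p under 0.05 there were 2 of the 7, near the 30.4% of all genes tested, namely CDH1 with 0.23 ± 0.07 (SE, limma adjusted p = 0.10) and ESRP1 with 0.24 ± 0.10 (SE, limma adjusted p = 0.15). The other 5 had limma adjusted p-values of 0.25 or more, with VIM at 0.00 ± 0.13 and KRT8 at -0.32 ± 0.20 (SE). KRT7 and KRT18 were at -0.09 and -0.17 with all libraries, and at 0.11 and 0.08 without control replicate 2.

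The comparison of HS0.5-R36 with HS0.5 leaves the heat exposure in both groups, and it shares its recovered libraries with the comparison above. Again 1 gene was higher and 5 were lower, where 28.8% of all genes were higher and 35.0% lower. VIM fell by 1.66 (limma adjusted p = 7.0e-06), KRT18 by 0.93 (limma adjusted p = 0.0013) and KRT7 by 0.59 (limma adjusted p = 0.0078) on the log2 scale. CDH1 fell by 0.57 (limma adjusted p = 0.00013) and EPCAM by 0.45 (limma adjusted p = 0.0068). ESRP1 rose by 0.68 (limma adjusted p = 0.00032). KRT8 was at 0.26 with a 95% interval of -0.18 to 0.70 (limma adjusted p = 0.27). Rescaled to the same sum, KRT8 was higher by 0.60 (limma adjusted p = 0.0089), and KRT7, EPCAM and CDH1 did not pass, which left 2 genes higher and 2 lower.

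The median of all genes moved with the scaling. In HS0.5-R36 against control that median was -0.06 as deposited, 0.24 with libraries rescaled to the same sum and 0.25 in the voom fit. Of all genes called there, 45.2% were higher as deposited (3277 higher, 3971 lower) and 69.1% after rescaling (5067 higher, 2261 lower). In HS0.5-R36 against HS0.5 the share of calls that were higher was 45.1% as deposited and 69.3% after rescaling, and in HS0.5 against control it was 63.4% as deposited and 50.2% in the voom fit. Relative to the median of all genes, over 6 scalings, VIM lay between -1.60 and -1.41, KRT18 between -1.04 and -0.53, EPCAM between -0.64 and -0.57 and ESRP1 between 0.96 and 1.08. KRT7 ranged from -0.62 to -0.10 and CDH1 from -0.36 to -0.04, the values nearest 0 coming close to the typical gene. KRT8 ranged from -0.0035 to 0.49. After quantile normalization KRT8 passed as higher (0.50, limma adjusted p = 0.0015) and KRT7 did not pass (-0.09, limma adjusted p = 0.31), so 2 genes were higher and 3 lower there. VIM, KRT18, EPCAM and ESRP1 passed with the same direction under all 6 scalings of this comparison.

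**Figure D4:**
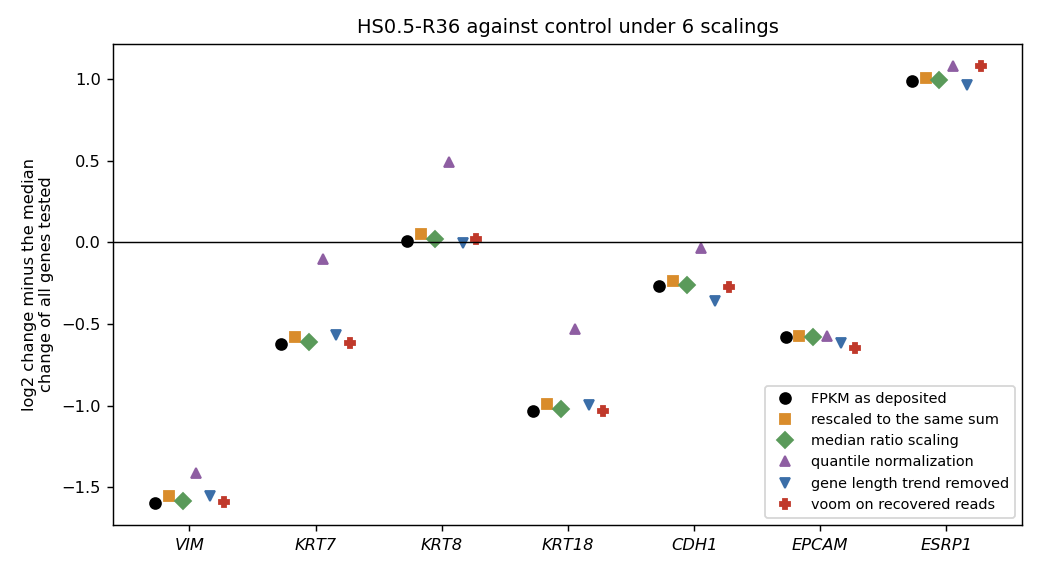
Log2 change of the 7 genes in HS0.5-R36 against control minus the median change of all genes tested, under 6 scalings (1 symbol each). VIM stays between -1.60 and -1.41 and ESRP1 between 0.96 and 1.08, whereas KRT7, KRT8 and CDH1 move toward or away from 0 with the scaling.

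Of 34 further keratin symbols, 9 were matched and 2 tested, and the other 25 were not analysed here. KRT80, a type II keratin of many epithelia that lies 47200 bases from KRT7 in the file's coordinates, had 17.0, 17.2 and 17.1 FPKM in HS0.5-R36, against 62.2, 58.2 and 60.9 FPKM in control. The groups were wide apart, and control replicate 2 was the lowest control here. KRT80 fell by 1.77 ± 0.06 on the log2 scale (SE, limma adjusted p = 1.7e-07). KRT10, a keratin of suprabasal skin, was at 4.27 FPKM in HS0.5-R36 and 4.08 FPKM in control (0.06, limma adjusted p = 0.66), and passed as higher with libraries rescaled to the same sum (0.34, limma adjusted p = 0.013). The other 7 matched keratins were under an FPKM of 1 on average in every group.

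An unnamed gene with the ID ENSSSCG00000017448 (chromosome 12, 21024314 to 21119396), which the file describes as like keratin 14, was as highly expressed as the named keratins. It had 213, 236 and 230.2 FPKM in HS0.5-R36, against 186, 280.5 and 170 FPKM in control, and the groups overlapped (0.13, limma adjusted p = 0.51). Its span holds 6 genes of the RefSeq table, KRT19 among them, so its reads cannot be assigned to any 1 keratin. Another gene on the same strand of chromosome 5 as KRT7, ENSSSCG00000040135 (17595201 to 17600884), had a mean of 1.29 FPKM in HS0.5-R36 and 0.208 in control. Its sequence was not compared with that of KRT7, and whether reads could be split between them was not tested.

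**Figure D5:**
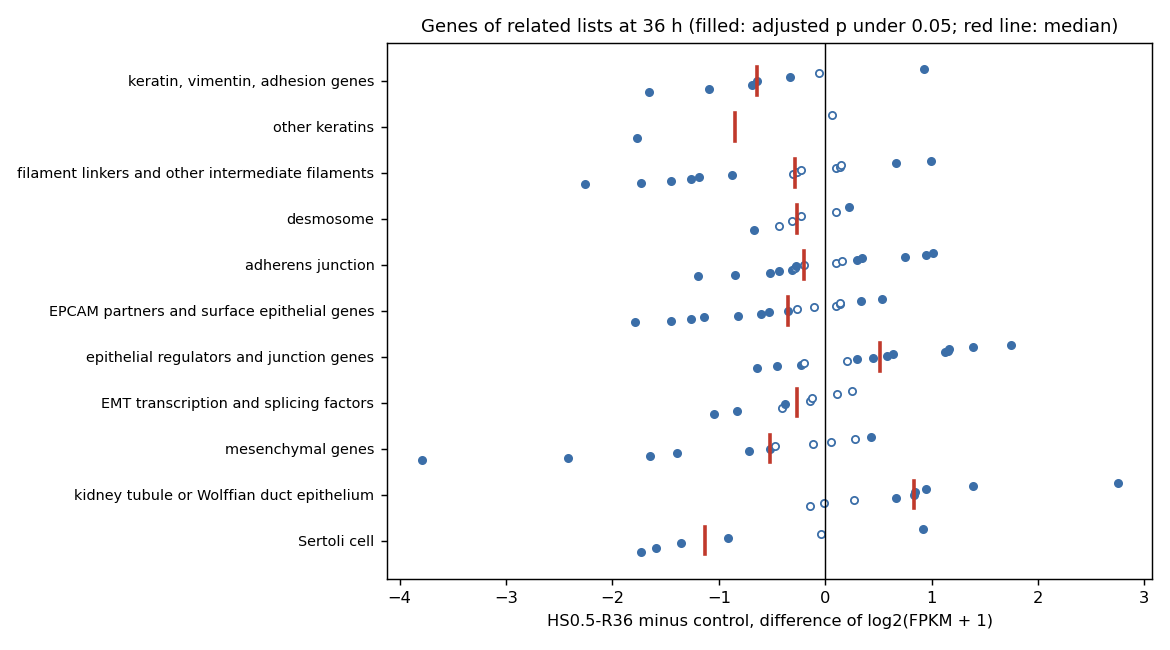
Log2 change in HS0.5-R36 against control for each tested gene of the related lists (filled points passed the threshold, open points did not), with the median of each list as a red line. The epithelial regulators and junction genes lie mostly above 0 with a median of 0.52, and the mesenchymal genes mostly below 0 with a median of -0.52.

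The lists of related genes are read against the 28.5% of all genes tested that were higher and the 34.6% that were lower in HS0.5-R36 than in control, and no list was tested as a whole. Genes for proteins that anchor or accompany the filaments went both ways. Of 14 tested filament linkers and other intermediate filament genes, 2 rose, 6 fell and 6 did not pass, with a median of -0.28. The genes that moved most were not keratin linkers: NES (nestin, a filament protein of progenitor cells) fell by 2.26 on the log2 scale, DES (desmin, of muscle) fell by 1.73 and LMNB1 (lamin B1, of the nuclear envelope) fell by 1.45. PLEC, the linker plectin, had 42.8 ± 5.98 FPKM in HS0.5-R36 and 79.7 ± 14.1 FPKM in control (SD, n = 3 each) and fell by 0.88 (limma adjusted p = 0.00066; 0.10 after quantile normalization). Of 6 tested desmosome genes, where keratin filaments attach, PERP fell by 0.67 (limma adjusted p = 0.00012; 0.12 after quantile normalization), PKP4 was higher by 0.22 (limma adjusted p = 0.027) and 4 did not pass, desmoplakin (DSP) and plakoglobin (JUP) among them. The call of PKP4 was lost when any single HS0.5-R36 library was left out, the highest limma adjusted p being 0.088. With libraries rescaled to the same sum, 4 linker genes were higher and 6 lower, and 2 desmosome genes were higher and 1 lower.

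Adherens junction genes beside CDH1 went both ways, with 5 higher and 6 lower of 15 tested and a median of -0.20, shares near those of all genes. The catenins that tie CDH1 to actin were lower as deposited: CTNNB1 (beta-catenin) had 52.1 ± 1.60 FPKM in HS0.5-R36 and 70.8 ± 3.52 FPKM in control (SD, n = 3 each), a log2 difference of -0.44 (limma adjusted p = 0.00056), and CTNNA1 (alpha-catenin) was at -0.27 (limma adjusted p = 0.010). Neither direction held under every scaling: after quantile normalization CTNNB1 was at 0.11 (limma adjusted p = 0.38) and CTNNA1 was higher by 0.33 (limma adjusted p = 0.0051), and rescaled to the same sum they were at -0.09 and 0.07 and did not pass. NECTIN3, a nectin of Sertoli and germ cell contacts in mice, fell by 1.19 (limma adjusted p = 7.7e-05) and VCL (vinculin) by 0.85 (limma adjusted p = 0.00042), VCL not passing after quantile normalization (limma adjusted p = 0.12). CDH16, the cadherin of kidney tubules, rose by 0.95 (limma adjusted p = 4.5e-05), with 109, 114 and 115 FPKM in HS0.5-R36 against 55.2, 68.1 and 51.9 FPKM in control. With libraries rescaled to the same sum the split of this list turned, to 7 higher and 2 lower.

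EPCAM associates at the membrane with claudin 7, CD44 and tetraspanins such as CD9, and its cleaved tail acts in the nucleus with FHL2, beta-catenin and LEF1. Of 15 tested partners and other surface epithelial genes 2 rose, 8 fell and 5 did not pass, with a median of -0.35. Among all genes tested, 28.5% were higher and 34.6% lower. FHL2 fell by 1.79 (limma adjusted p = 5.8e-07), CD44 by 1.45 (limma adjusted p = 1.1e-06) and CD9 by 1.14 (limma adjusted p = 6.4e-05) on the log2 scale. CLDN7 fell by 1.26, with 0.890 ± 0.154 FPKM in HS0.5-R36 and 3.57 ± 0.915 FPKM in control (SD, n = 3 each). SPINT1, an inhibitor of membrane serine proteases, rose by 0.53 (limma adjusted p = 0.00031). With libraries rescaled to the same sum 5 were higher and 6 lower.

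In a list of epithelial transcription and RNA regulators and of tight junction, polarity and membrane genes, without ESRP1, 9 of 14 tested genes were higher, 3 were lower and 2 did not pass, with a median of 0.52. TJP3, a tight junction scaffold, had 11.9, 12.1 and 11.1 FPKM in HS0.5-R36, against 2.82, 3.06 and 2.51 FPKM in control, and rose by 1.74 on the log2 scale (limma adjusted p = 6.1e-07). ELF3, an epithelial ETS factor, rose by 1.16 (limma adjusted p = 0.00015). The lower genes were KLF5, LSR and MAL2, at -0.64, -0.45 and -0.23, of which LSR and MAL2 did not pass with libraries rescaled to the same sum (-0.11 and 0.11). That scaling left 10 genes higher and 1 lower.

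Among genes of the mesenchymal side of EMT, 1 rose as deposited. Of 8 tested EMT transcription and splicing factors 0 rose and 3 fell, among them the repressor SNAI1 by 1.05 and the splicing factor QKI by 0.38 on the log2 scale (limma adjusted p = 0.00012 and 0.030), and the call of QKI was lost under other filters and scalings and without single libraries (limma adjusted p up to 0.78 after rescaling to the same sum). ZEB1 and ZEB2, repressors of CDH1 and ESRP1, did not pass as deposited, ZEB1 at 3.03 ± 0.441 FPKM in HS0.5-R36 and 4.50 ± 1.65 in control, and ZEB2 at 2.36 ± 0.526 in HS0.5-R36 and 1.85 ± 0.706 in control (SD, n = 3 each). ZEB1 passed as lower after quantile normalization (-0.56, limma adjusted p = 0.027), and ZEB2 passed as higher in the voom fit (0.75, limma adjusted p = 0.037). Of 11 tested mesenchymal genes beside VIM, 1 rose and 6 fell, with a median of -0.52. TAGLN (transgelin) fell by 2.42 and ITGA5 (the fibronectin receptor) by 1.65, while COL1A2 rose by 0.43 (limma adjusted p = 0.0050). With libraries rescaled to the same sum, 1 EMT factor was higher and 2 lower, and 2 mesenchymal genes were higher and 5 lower. The split of the mesenchymal genes was 3 higher and 5 lower after quantile normalization, and 4 higher and 5 lower in the voom fit. In HS0.5 against control, 0 of the 83 distinct genes tested in these 8 lists passed in limma, where 3.62% of all genes passed, and 3 passed in the voom fit. Of the 83, 28 had an unadjusted limma p under 0.05, where 30.4% of all genes did.

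Markers of cell types were set beside these changes. Of 18 Sertoli cell markers 12 were matched, with a summed level, mostly of CLU (clusterin), of 2727 to 3797 FPKM in control libraries, 2791 to 2858 in HS0.5 libraries and 2866 to 3167 in HS0.5-R36 libraries. SOX9, the factor that specifies Sertoli cells, had 1.24 ± 0.204 FPKM in HS0.5-R36 and 6.47 ± 0.684 FPKM in control, and AMH, an early Sertoli hormone, had 8.09 ± 1.19 FPKM in HS0.5-R36 and 22.3 ± 3.83 FPKM in control (SD, n = 3 each). Of 12 markers of kidney tubules or the Wolffian duct 9 were matched, with a summed level of 142.1 to 147.6 FPKM in control libraries, 122.1 to 137 in HS0.5 libraries and 258.4 to 267.4 in HS0.5-R36 libraries, and 6 of the 9 were higher and 0 lower after recovery (7 and 1 after quantile normalization), beside 28.5% and 34.6% of all genes. CDH16 stands in this list and among the adherens junction genes above. The part of these markers in the changes of ESRP1 and the keratins was not tested.

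Markers of other testis cells were low. In HS0.5-R36 the matched markers of peritubular myoid cells (5 of 5) summed to 2.05 to 2.49 FPKM, against 7.13 to 10.5 in control, mostly of DES, and MYH11 and ACTA2 were under 0.5 in all libraries. Leydig cell markers (3 of 6) summed to 3.59 to 4.95 FPKM in HS0.5-R36, against 2.46 to 3.30 in control, and germ cell markers (3 of 8) to 0.347 to 0.469 in HS0.5-R36, against 0.548 to 1.27 in control. Endothelial markers (4 of 6) summed to 0.187 to 0.336 FPKM in HS0.5-R36, against 0.830 to 0.979 in control, blood and macrophage markers (4 of 7) to 9.76 to 10.4 in HS0.5-R36, against 6.35 to 8.56 in control, and mesothelial markers (3 of 6) to 5.97 to 7.63 in HS0.5-R36, against 4.55 to 6.77 in control. CYP17A1, DDX4, CDH5, CSF1R and CALB2 were each under 0.5 FPKM in all libraries. CYP11A1, the enzyme that starts steroid synthesis, rose by 1.40 on the log2 scale, with 1.95 ± 0.127 FPKM in HS0.5-R36 and 0.121 ± 0.0929 FPKM in control (SD, n = 3 each, limma adjusted p = 3.7e-06). The most expressed markers of their lists were STAR at 2.22 FPKM in HS0.5-R36 and 2.64 in control, SYCP3 at 0.356 in HS0.5-R36 and 0.651 in control, and PECAM1 at 0.251 in HS0.5-R36 and 0.913 in control. CD14 was at 5.41 FPKM in HS0.5-R36 and 4.55 in control, and UPK1B at 7.06 in HS0.5-R36 and 5.96 in control. Each of these sums was below the FPKM of KRT18 in every library, and their part in the results above was not tested.

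The genes whose profile over the 9 libraries was most like that of a member were found by the root mean square difference of log2 profiles among 6909 genes with a symbol and a mean FPKM of at least 5. For ESRP1, the member with the largest rise, these were PLS1 (a microvillus actin bundler, difference 0.061), ABI2 (0.065) and SALL1 (0.066). PLS1 had 29.7 ± 4.69 FPKM in control libraries, 36.2 ± 2.06 in HS0.5 libraries and 57.5 ± 3.32 in HS0.5-R36 libraries (SD, n = 3 each). For VIM, the member with the largest fall, they were PDGFA (a growth factor chain, 0.037), ZYX (zyxin of focal adhesions, 0.054) and CCNB1 (cyclin B1, 0.068). PDGFA had 40.3 ± 7.37 FPKM in control libraries, 40.2 ± 1.23 in HS0.5 libraries and 12.2 ± 0.945 in HS0.5-R36 libraries (SD, n = 3 each).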

How the data were processed

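RNA of 9 libraries of porcine immature Sertoli cells, in 3 groups of 3, had been sequenced. Per the submitters' processing notes, base calls came from bcl2fastq and alignments from HISAT2 2.0.5. Neither the counter nor the genome build is given in the sources used here. Among 12215 genes sharing a symbol with the RefSeq table of Sscrofa11.1, 98.9% overlapped that table's gene. The authors deposited FPKM for 20681 genes with a gene length and coordinates, and 8 lines without values were left out. The product of FPKM and gene length was a whole number of reads for 100% of values (tolerance 1e-06).

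Genes with FPKM of at least 1 in at least 3 of the 9 libraries were kept. A linear model of log2(FPKM + 1), with a mean for each group and a variance trend, was fitted in limma 3.58.1 (R 4.3.3), two-sided, with Benjamini-Hochberg adjustment over all 11479 genes. The added 1 understates changes of weakly expressed genes. Ratios within libraries were compared by exact permutation tests (SciPy 1.17.1). The fit was tested on simulated data.

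The members and gene lists were chosen with earlier results of these data known. From each list, up to 3 genes with the largest change that passed in HS0.5-R36 against control are named where their mean FPKM reached 5 in either group, as is the most expressed gene of each marker list. PLEC, CTNNB1, CTNNA1, CLDN7, SPINT1, KLF5, LSR, MAL2, SNAI1, ZEB1, ZEB2, COL1A2, KRT10, ESRP2, GRHL1, GRHL3, SOX9, AMH, CYP11A1, PAX2 and EMX2 were chosen after their values were seen. Some genes named by this rule are not reported here. Alternatives covered the pseudocount, filters, scalings, gene length, fits of the compared groups or with replicate blocks, a voom fit of recovered reads, and leaving out each library.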

Additional observations from a re-analysis of the deposited data

How the results depend on the processing

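Leaving out 1 library left 0 of the 7 genes past the threshold in HS0.5 against control and 6 of 7 in HS0.5-R36 against control and against HS0.5. The number of all genes that passed ran from 78 to 457 in HS0.5 against control, from 6034 to 7847 in HS0.5-R36 against control and from 5995 to 8448 in HS0.5-R36 against HS0.5. In HS0.5 against control 415 genes passed as reported, 193 with no filter, 243 at a filter of FPKM 5, 199 with libraries rescaled to the same sum and 119 when only the compared groups were fitted. Same-numbered libraries did not deviate together (correlations of -0.429 to 0.265 over 9 pairs, 2 of 9 libraries matching best with their own number), and with the replicate number as a block 221 genes passed there, with the same calls for the 7 genes and without that of PKP4 in HS0.5-R36 against control (limma adjusted p = 0.051). With libraries left out, the log2 difference of KRT8 to KRT18 ran from 0.97 to 1.21 in HS0.5-R36 against control, from 1.13 to 1.36 against HS0.5 and from -0.20 to -0.09 in HS0.5 against control. For KRT18 to VIM the ranges were 0.49 to 0.68, 0.69 to 0.75 and -0.23 to -0.04, and for EPCAM to CDH1 they were -0.47 to -0.22, -0.0072 to 0.19 and -0.56 to -0.31, in the same order of comparisons.

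In HS0.5-R36 against control, with a call in the reported or the other setting, the sign turned for KRT8 after quantile normalization (0.50), for CDH1 after rescaling to the same sum (0.00054) and for CLU after rescaling (0.31), quantile normalization (0.60) and in the voom fit (0.28). With no call in either setting, KRT8 also turned to 0.29 after rescaling, 0.03 after median ratio scaling and 0.27 in the voom fit, and to 0.15 without control replicate 2. The cause was not tested. Of 2106 values of 37 named genes under 19 settings, 2048 kept their side of the threshold, 25 gained and 28 lost a call, and 5 turned sign with a call as above. Of the 2048, 52 turned sign without a call in either setting. Ratios of CDH1 to CDH2 and of KRT19 to KRT7 could not be formed. Depth did not limit the 7 genes, each with at least 2072 reads per group. The number of libraries, 3 per group, limits the ratio tests.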
